A study of Mus musculus with 9 samples.

Results

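Lyve1, Prox1, Flt4, Pdpn, Vegfc and Nrp2 are the usual RNA markers of lymphatic endothelium and the core of its main growth signal. They were taken by gene symbol from the count table, which held all 6 of them among 20731 genes. Vascular endothelial growth factor C (VEGF-C, Vegfc) is secreted as a precursor, is cut by a protease that needs the cofactor CCBE1, and binds the receptor VEGFR3 (Flt4), with neuropilin 2 (Nrp2) as co-receptor. The transcription factor PROX1 specifies and maintains lymphatic endothelial identity, LYVE1 is a hyaluronan receptor of the lymphatic surface, and podoplanin (Pdpn) is a surface glycoprotein that binds CLEC-2 on platelets. In the head, lymphatic vessels run in the dura along the venous sinuses and drain to the deep cervical lymph nodes. None of the 6 genes is private to these vessels: Prox1 is also made by dentate granule neurons, some thalamic neurons and oligodendrocyte precursors, Nrp2 by many neurons, Pdpn by choroid plexus, meningeal cells and reactive astrocytes, and Lyve1 by border-associated macrophages.

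RNA was sequenced from 9 male C57BL/6J mice aged 8 to 10 weeks, 3 in each of 3 groups, 2 days after modelling. All mice had an induced thrombosis of the superior sagittal sinus (cerebral venous sinus thrombosis, CVST). The CVST group had the thrombosis alone, the CVST+Ligation group also had its deep cervical lymph nodes tied off, and the 4-PBA group (labelled CVST_Ligation_4_PBA) had both together with 4-phenylbutyric acid, an inhibitor of endoplasmic reticulum stress. By the methods, 4-PBA was injected at 100 mg/kg 30 min before modelling, whereas the description of the data set places it after ligation. No mice without thrombosis were among these libraries, so each comparison is between mice with thrombosis. The labels give the tissue as brain and the description as cortex, and neither names the meninges, where lymphatic vessels of the head lie.

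The libraries held 18100739 to 25091498 counted reads. At this depth 3 counts, taken as the floor of detection, corresponded to 0.114 to 0.163 CPM (counts scaled to a common library size, here on the TMM scale, which corrects for library composition). Markers of brain regions differed between groups. The summed level of 10 genes of thalamic neurons was 77.6 to 129 CPM in the CVST group, 267 to 720 in the CVST+Ligation group and 490 to 855 in the 4-PBA group. For 8 genes of midbrain dopamine neurons the sums were 18 to 19.5, 169 to 207 and 226 to 230 CPM, and Pitx3, one of these genes, was at 0 in all CVST libraries. One library, CVST+Ligation replicate 2, stood apart, with 1622 CPM of 9 cerebellar genes against 110 to 234 in the other libraries. Genes of the choroid plexus summed to 24 and 103 CPM in CVST+Ligation replicates 2 and 1, to 3177 in 4-PBA replicate 1 and to between 455 and 990 elsewhere. The comparisons share libraries and are therefore not independent of each other. In bulk tissue, fewer cells of a type and less RNA per cell cannot be told apart.

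Among the other defining genes of lymphatic endothelium, Mmrn1 was at the floor and Ccl21a was low. Mmrn1, a lymphatic matrix protein, had 0 to 3 counts in the CVST libraries, 0 in all 3 CVST+Ligation libraries and 0 to 2 in the 4-PBA libraries. Ccl21a, the chemokine that draws immune cells into lymphatic vessels, had 9 to 15, 2 to 7 and 2 to 12 counts, and reads of its near-identical copies make this value uncertain. Its CVST values, 0.488 to 0.665 CPM, lay above the CVST+Ligation values, 0.0827 to 0.308, with a log2 fold change for ligation of -1.71 (SE 0.77, unadjusted p = 0.0502 and adjusted p = 0.516 in edgeR). Foxc2, Stab2 and Clca3a1 were low, with lowest and highest values of 0.255 and 2.27, 1.19 and 2.78, and 0.567 and 1.74 CPM, and Sox18, which blood endothelium also makes, lay at 5.18 to 8.54 CPM. Reln was abundant, at 51.9 to 225 CPM, and is also a gene of neurons. The whole list of 12 defining genes, 4 of the members included, summed to 155 to 225 CPM in the CVST group, 237 to 311 in the CVST+Ligation group and 195 to 257 in the 4-PBA group, with Reln the highest single gene in every library. The data are thus levels of these genes in brain tissue, and they are not described here as levels in lymphatic vessels.

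On the scale of gene length (FPKM as deposited, which scale each count by library total and gene length), the members spanned a wide range. In the CVST group, Pdpn was highest at 48.7 ± 11.1 FPKM (SD, n = 3), followed by Nrp2 at 7.14 ± 3.36, Prox1 at 3.69 ± 0.669 and Vegfc at 3.57 ± 0.458. Flt4 stood at 1.23 ± 0.406 FPKM and Lyve1 at 0.185 ± 0.0761. Here the ranges of Vegfc and Prox1, and those of Prox1 and Nrp2, overlapped, while Pdpn lay above and Flt4 and Lyve1 lay below all others. In the CVST+Ligation group Prox1 stood at 10.7 ± 2.76 FPKM and Vegfc at 3.97 ± 0.817, and in the 4-PBA group at 11.7 ± 8.26 and 3.87 ± 1.86. In both groups every Prox1 value lay above every Vegfc value, and the ranges of Prox1 and Nrp2 overlapped. The lengths behind these values were coding lengths for 5 of the 6 genes, such as 516 bases for Pdpn, whose longest annotated transcript has 1817, so the order between genes also depends on this choice of length.

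**Figure D1:**
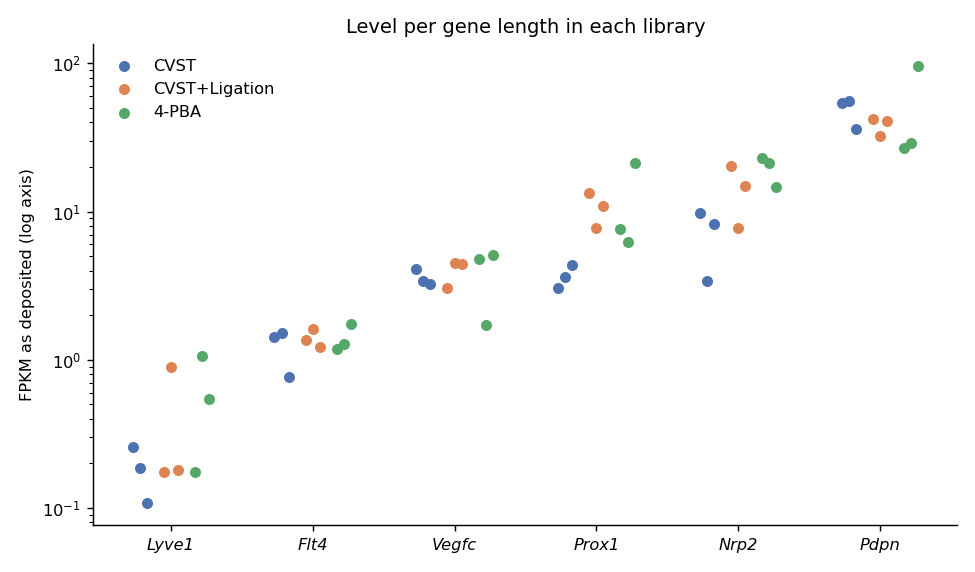
Deposited FPKM of the 6 genes (log axis) in each of the 9 libraries, coloured by group, 1 point per library. Lyve1 lies at 0.108 to 1.06 FPKM and Pdpn at 26.7 to 96.3, and the Prox1 points of the CVST group lie below those of the other groups.

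The promoters of Prox1 and Nrp2, the genes with the largest differences between groups apart from the sparsely counted Lyve1, are shown with that of Pdpn, which overlapped between all groups. Each is the stretch before the annotated start, from RefSeq sequence of GRCm38.p6, written 5′ to 3′ on the gene's strand. Capitals mark AGGTCA, the half-site bound by many nuclear receptors, among them COUP-TFII (Nr2f2), a regulator of Prox1 in lymphatic development.
Prox1, chr1:190170828-190171077, minus strand: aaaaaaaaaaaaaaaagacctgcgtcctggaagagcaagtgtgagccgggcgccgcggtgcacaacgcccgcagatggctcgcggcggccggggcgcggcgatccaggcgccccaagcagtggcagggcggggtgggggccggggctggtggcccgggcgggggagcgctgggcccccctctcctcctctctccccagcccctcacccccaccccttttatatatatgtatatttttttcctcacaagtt
Nrp2, chr1:62703067-62703284, plus strand: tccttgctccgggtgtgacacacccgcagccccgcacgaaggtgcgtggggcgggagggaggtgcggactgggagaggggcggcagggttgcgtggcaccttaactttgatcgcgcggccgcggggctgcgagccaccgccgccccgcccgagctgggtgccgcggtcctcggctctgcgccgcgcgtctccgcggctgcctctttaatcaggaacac
Pdpn, chr4:143299565-143299814, minus strand: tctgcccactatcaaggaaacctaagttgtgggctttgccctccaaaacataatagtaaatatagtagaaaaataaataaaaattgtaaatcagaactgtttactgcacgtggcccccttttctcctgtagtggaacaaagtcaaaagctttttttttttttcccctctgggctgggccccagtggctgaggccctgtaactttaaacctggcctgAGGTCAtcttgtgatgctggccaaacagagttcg
The Prox1 and Nrp2 sequences were rich in G and C (64.8% and 72.4%), with 20 and 32 CpG pairs, and the Pdpn sequence had 43.2% and 2 CpG pairs. A further promoter entry of Prox1, not printed here, had 56% and 11 CpG pairs. AGGTCA or its reverse TGACCT, searched on both strands, was found once in the Pdpn window, 34 bases before the start, and in neither of the others. Of 32851 RefSeq promoter windows of 250 bases, 14% held it, while the Nrp2 sequence had only 218 bases. The core of SOX sites, AACAAT or ATTGTT, occurred in none of these 3 sequences and in 9.42% of all windows. The genes lie at chr1:190118035-190170714 (Prox1), chr1:62703285-62818695 (Nrp2) and chr4:143267431-143299564 (Pdpn) of GRCm38. Lyve1 is at chr7:110850607-110863239, Flt4 at chr11:49609263-49652739 and Vegfc at chr8:54077606-54187096. Transcripts on the opposite strand overlap Prox1 (Prox1os, Gm28172) and Nrp2 (Gm29083), but outside their coding exons. Gm37121 overlaps Nrp2 on the same strand, also outside its coding exons.

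For ligation, the CVST+Ligation group was compared with the CVST group. These groups also differed in the region markers above, so ligation and region content cannot be told apart as sources of a difference. Here and elsewhere, 'after ligation', 'for ligation' and 'ligation difference' name this comparison only. Prox1 stood out, at 2.82-fold the CVST level, with the groups apart, Nrp2 was 1.94-fold higher with overlapping groups, and Vegfc, Flt4, Pdpn and Lyve1 overlapped. In the quasi-likelihood test of edgeR, with Benjamini-Hochberg adjustment over all 14746 genes tested, none of the 6 members was called at an adjusted p under 0.05 (0.0203% of all genes were). At an unadjusted p under 0.05 1 of the 6, Prox1, passed, against 9.64% of all genes, and in 1 of the 6 the groups did not overlap, against 13.8% of all genes. A count of 1 in 6 is near these background shares and is no result about the set. DESeq2, which called 1.8% of all genes at an adjusted p under 0.05, called 1 member, Prox1.

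For 4-PBA, the 4-PBA group was compared with the CVST+Ligation group. The midbrain sums given above did not overlap between these groups either. None of the 6 members differed here in the edgeR test (Benjamini-Hochberg adjusted), in which 0% of all genes were called, and none passed at an unadjusted p under 0.05, against 3.23% of all genes. Without CVST+Ligation replicate 2, the library that stood apart, 1497 in place of 476 genes passed at an unadjusted p, and still none of the 6. DESeq2 called none of the 6 and 0.15% of all genes. All 6 genes overlapped between these groups, whereas 7.73% of all genes did not (3.51% were higher without overlap). Every adjusted p was 1, and the intervals of the differences, given with each gene, include changes of about 2-fold for most members.

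In the third comparison, the 4-PBA group against the CVST group, Prox1 was 2.99-fold and Nrp2 2.6-fold higher, and the groups did not overlap for either. No member was called by the edgeR test (Benjamini-Hochberg adjusted) (0.122% of all genes were). At an unadjusted p under 0.05 Prox1 and Nrp2, 2 of the 6, passed, against 15.4% of all genes. In the same 2 of 6 the groups did not overlap, against 23.7% of all genes, or 12.3% counting only genes higher in the 4-PBA group. DESeq2, which called 5.82% of all genes at an adjusted p under 0.05, called both.

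**Figure D2:**
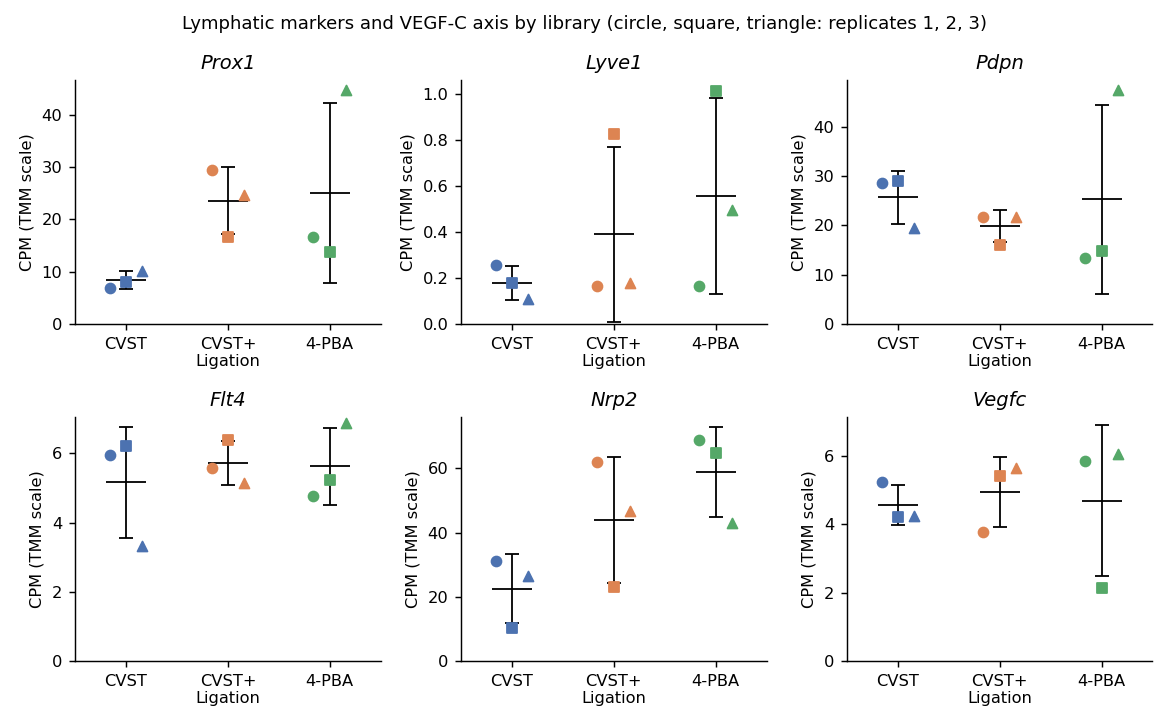
CPM on the TMM scale of each gene in each library, by group, with the mean (long bar) and SD of 3 libraries; each panel has its own axis from 0. Prox1 lies at 6.93 to 10.2 CPM in the CVST group and at 13.7 CPM or more in all other libraries, and Flt4 and Vegfc overlap in all groups.

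Vegfc, the ligand, had 5.23, 4.21 and 4.23 CPM in CVST replicates 1 to 3. It had 3.76, 5.41 and 5.63 CPM in the CVST+Ligation group and 5.85, 2.15 and 6.06 in the 4-PBA group. The groups overlapped, and the lowest value, in 4-PBA replicate 2, was under those of all other libraries. The log2 fold change was 0.11 (SE 0.38, 95% interval -0.74 to 0.97) for ligation, -0.07 (SE 0.38, -0.93 to 0.78) for 4-PBA against CVST+Ligation, and 0.04 (SE 0.38, -0.82 to 0.89) for 4-PBA against CVST. These intervals leave room for changes of somewhat under 2-fold in either direction.

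The same pathway also holds the other VEGF ligands and the genes that process VEGF-C. Of 7 further VEGF ligands and processing genes (Vegfa, Vegfb, Vegfd, Pgf, Ccbe1, Adamts3 and Adamts14), 0 of 7 passed an unadjusted p under 0.05 in edgeR's test in any of the 3 comparisons, in which 9.64% (ligation), 3.23% (4-PBA against CVST+Ligation) and 15.4% (4-PBA against CVST) of all genes passed. With 7 genes, a count of 0 is near these shares. Adamts3, the protease that cuts VEGF-C, averaged 19.9 ± 8.17 CPM in the CVST group, 14.9 ± 1.44 in the CVST+Ligation group and 14.5 ± 1.09 in the 4-PBA group (SD, n = 3 each). Ccbe1, its cofactor, averaged 0.968 ± 0.471, 1.87 ± 1.77 and 1.89 ± 0.849 CPM, and Adamts14, a related protease, 0.665 ± 0.544, 1.01 ± 0.851 and 1.15 ± 0.573. The groups overlapped for all 3 genes.

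Flt4, the VEGF-C receptor, had 5.95, 6.21 and 3.31 CPM in CVST replicates 1 to 3. It had 5.58, 6.39 and 5.14 CPM in the CVST+Ligation group and 4.77, 5.22 and 6.86 in the 4-PBA group. A single library, CVST replicate 3, lay below the rest, and it also had the lowest sum of 11 genes of blood endothelium, 356 CPM against 396 to 608 in the other libraries. Whether the amount of vessel tissue bears on this value was not tested. The log2 fold change was 0.14 (SE 0.29, 95% interval -0.50 to 0.79) for ligation, -0.02 (SE 0.29, -0.66 to 0.62) for 4-PBA against CVST+Ligation and 0.12 (SE 0.29, -0.52 to 0.77) for 4-PBA against CVST, the narrowest intervals among the members. Without CVST replicate 3 the first value was -0.11 and the last -0.13.

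Nrp2, the co-receptor, had 31.1, 10.4 and 26.5 CPM in CVST replicates 1 to 3. It had 62.1, 23.1 and 46.7 CPM in the CVST+Ligation group and 69, 64.7 and 42.9 in the 4-PBA group. All 4-PBA values lay above all CVST values, and CVST+Ligation replicate 2 fell among the CVST values. Against CVST, the log2 fold change was 0.96 (SE 0.44, 95% interval -0.02 to 1.94) in the CVST+Ligation group, with an unadjusted p of 0.054 and an adjusted p of 0.52 in the edgeR test (Benjamini-Hochberg adjusted). In the 4-PBA group it was 1.38 (SE 0.44, 0.39 to 2.36), with an unadjusted p of 0.0112 and an adjusted p of 0.183 in the same edgeR test. Between the 4-PBA and CVST+Ligation groups it was 0.42 (SE 0.43, -0.55 to 1.38), and 0.12 to 0.77 with a library left out, the lowest without CVST+Ligation replicate 2. Without CVST replicate 2, the library with the lowest value, the ligation difference was 0.61 and that of the 4-PBA group 1.04, and without CVST+Ligation replicate 2 the ligation difference was 1.26 (unadjusted p = 0.0115 and adjusted p = 0.453 in edgeR).

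Region markers differed between the groups in the same comparison as Nrp2. In the 4-PBA group against CVST, 9 of 10 thalamic and 8 of 8 midbrain dopamine genes were higher at an unadjusted p under 0.05 in edgeR's test, against 8.07% of all genes. Summed markers of vascular smooth muscle were 168 to 243 CPM in the 4-PBA group and 90.6 to 154 in the CVST group, and those of oligodendrocyte precursors 145 to 194 and 101 to 116. None of these 4 lists overlapped between the groups. Their part in the Nrp2 difference was not tested.

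Nrp2 is shared by VEGF-C and class 3 semaphorins, secreted guidance molecules that signal through plexins. Of the 10 other VEGF and semaphorin receptors, 1 passed an unadjusted p under 0.05 after ligation and in the 4-PBA group against CVST, and 0 of 10 passed between the 4-PBA and CVST+Ligation groups. Over all genes 9.64%, 15.4% and 3.23% passed, and 1 of 10 is near the first and below the second of these shares. The gene was Plxna3, a plexin partner of neuropilins, at 15.6 ± 3.36 CPM in the CVST group, 23.2 ± 3.95 in the CVST+Ligation group and 22.2 ± 3.94 in the 4-PBA group (SD, n = 3 each). Kdr, the VEGFR2 receptor of blood endothelium, stood at 23.8 ± 8.18, 33.7 ± 4.31 and 30.7 ± 3.58 CPM and did not pass, nor did Plxna1 at 69.5 ± 13, 103 ± 28.3 and 85.6 ± 30.7.

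Of the 7 class 3 semaphorins, 1 was higher after ligation, 1 in the 4-PBA group against CVST+Ligation and 3 in the 4-PBA group against CVST at an unadjusted p under 0.05, and none was lower. Over all genes 5.47%, 1.81% and 8.07% were higher in these comparisons. Sema3d had 1.44 ± 0.3 CPM in the CVST group, 2.73 ± 0.545 in the CVST+Ligation group and 3 ± 0.49 in the 4-PBA group, with all CVST values below the others. Sema3g, a semaphorin of vessels, had 2.71 ± 1.23, 3.71 ± 1.8 and 7.2 ± 1.83 CPM. Sema3b was high in a single library: it had 44.4 CPM in 4-PBA replicate 2, and 8.02 and 1.3 CPM in the other 4-PBA libraries. The smallest adjusted p among the 7 genes was 0.163 in the edgeR test (Benjamini-Hochberg adjusted).

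Prox1, the transcription factor, had 6.93, 8.03 and 10.2 CPM in CVST replicates 1 to 3. It had 29.4, 16.7 and 24.7 CPM in the CVST+Ligation group and 16.6, 13.7 and 44.8 in the 4-PBA group. Every CVST value lay below every value of the other groups, and those groups overlapped, with 4-PBA replicate 3 far above its group. With 163 to 1176 counts per library, counting error is small beside these differences. Against CVST, the log2 fold change was 1.50 (SE 0.43, 95% interval 0.53 to 2.47) in the CVST+Ligation group, with an unadjusted p of 0.00658 and an adjusted p of 0.322 in the edgeR test (Benjamini-Hochberg adjusted). It ranked 299 of 14746 by p. In the 4-PBA group against CVST it was 1.58 (SE 0.43, 0.61 to 2.55), with an unadjusted p of 0.00483 and an adjusted p of 0.134 in the same edgeR test. DESeq2 gave adjusted p values of 0.0398 and 0.00945.

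Between the 4-PBA and CVST+Ligation groups the log2 fold change of Prox1 was 0.08 (SE 0.42, 95% interval -0.86 to 1.02). This value rested on 4-PBA replicate 3: without it, it was -0.64 (unadjusted p = 0.0505 and adjusted p = 1 in edgeR), and the difference from CVST was 0.85 in place of 1.58. The ligation difference lay between 1.30 and 1.69 with each library left out in turn, and was 1.69 without CVST+Ligation replicate 2.

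Markers of other cells that make Prox1 also differed between groups. Among 10 genes of thalamic neurons 7 were higher after ligation at an unadjusted p under 0.05 in edgeR's test, and 8 did not overlap, against 5.47% and 6.61% of all genes. Among 10 genes of dentate granule neurons 3 were higher, and the list's sum was 232 to 276 CPM in the CVST group, 329 to 445 in the CVST+Ligation group and 250 to 335 in the 4-PBA group, the last overlapping the first. Calb1, which cerebellar neurons also make, was the largest term in all 9 libraries, and without it the sums were 98.3 to 128 CPM in the CVST group, 248, 91.3 and 191 in CVST+Ligation replicates 1 to 3 and 132 to 196 in the 4-PBA group, so that CVST+Ligation replicate 2 fell below the CVST libraries. Oligodendrocyte precursor genes summed to 101 to 116, 126 to 143 and 145 to 194 CPM. Of the 11 lymphatic defining genes tested 1, Prox1 itself, passed after ligation, against 9.64% of all genes, Ccl21a was lower without overlap but did not pass, and Mmrn1 was at 0 in all CVST+Ligation libraries. The part of the neuronal lists in the Prox1 difference was not tested.

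**Figure D3:**
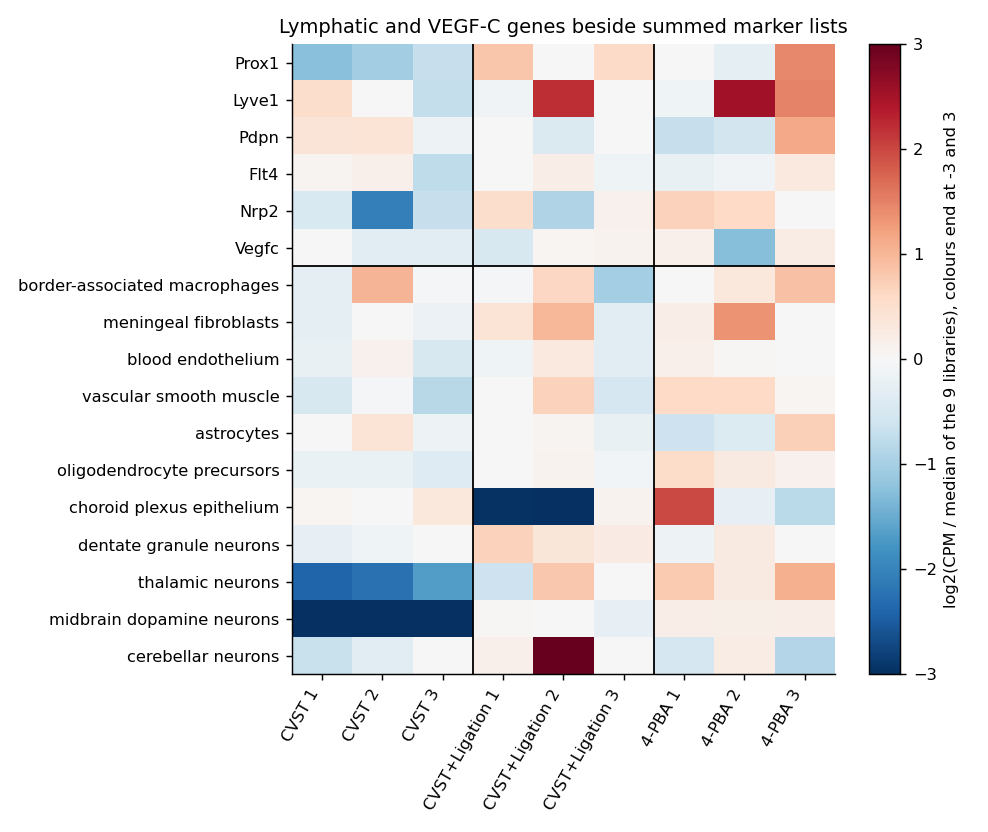
The 6 genes (above the line) and the summed CPM of marker lists (below) in the 9 libraries, as log2 of the value over the median of the libraries; red is above and blue below the median, and colours end at -3 and 3. Prox1 and the thalamic and midbrain lists are lowest in the CVST libraries, while Lyve1 and the meningeal fibroblast list are highest in CVST+Ligation replicate 2 and 4-PBA replicate 2.

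Of 8 other transcription factors of lymphatic development, 1, Hhex, was higher in the 4-PBA than in the CVST+Ligation group at an unadjusted p under 0.05. It averaged 2.63 ± 0.68 against 1.48 ± 0.461 CPM (SD, n = 3 each, unadjusted p = 0.0487 in edgeR), and was not called after adjustment. Over all genes 3.23% passed and 1.81% were higher in this comparison. Nr2f2 varied within groups: it had 5.52, 6.96 and 48.8 CPM in the CVST libraries, 46.9, 17 and 43.3 in the CVST+Ligation libraries and 76.7, 65.3 and 30.4 in the 4-PBA libraries. Gata2, a factor of lymphatic valves, averaged 2.14 ± 0.744, 3.96 ± 1.79 and 3.72 ± 0.456 CPM and did not pass in any comparison.

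Lyve1, the hyaluronan receptor, was near the limit of detection. It had 6, 4 and 2 counts in CVST replicates 1 to 3, 4, 16 and 4 in the CVST+Ligation group and 3, 24 and 13 in the 4-PBA group. The exact 95% Poisson interval of the lowest count, 2, was 0.242 to 7.22 and that of the highest, 24, was 15.4 to 35.7, covering counting error only. On the CPM scale these were 0.255, 0.177 and 0.108 CPM, then 0.165, 0.825 and 0.176 CPM, then 0.163, 1.01 and 0.495 CPM. CVST+Ligation replicate 2 and 4-PBA replicates 2 and 3 were the highest, and Lyve1 entered the test only through these libraries. The interval of 24 counts lay above those of all libraries with 6 counts or fewer, while those of 16 and 13 counts (9.15 to 26 and 6.92 to 22.2) overlapped that of 6 counts (2.2 to 13.1). The log2 fold change was 1.03 (SE 0.89, 95% interval -0.97 to 3.03) for ligation, 0.56 (SE 0.81, -1.26 to 2.38) for 4-PBA against CVST+Ligation and 1.59 (SE 0.87, -0.36 to 3.54) for 4-PBA against CVST. Without CVST+Ligation replicate 2 the ligation value was -0.10. For 4-PBA against CVST the value was 0.87 without 4-PBA replicate 2 and 2.02 without 4-PBA replicate 1 (unadjusted p = 0.0454 and adjusted p = 0.478 in edgeR). No difference in Lyve1 was detectable by the adjusted p in these libraries.

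Markers of other cells of the brain's borders were highest in some of these libraries. Summed markers of meningeal fibroblasts were 345 CPM in CVST+Ligation replicate 2 and 441 in 4-PBA replicate 2, against 136 to 230 in the other 7 libraries, with 172 in 4-PBA replicate 3. Markers of border-associated macrophages, which also make Lyve1, summed to 45.2 CPM in CVST+Ligation replicate 2 and to 36.6 and 54 in 4-PBA replicates 2 and 3. The other libraries had 14.5 to 29.6 CPM, except CVST replicate 2, which had the highest sum, 59.6, and 4 counts of Lyve1. The part of meningeal tissue or of macrophages in the Lyve1 counts was not tested.

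Among 9 further genes of the lymphatic surface or secreted by it, 8 were tested (Mmrn1 had too few counts), and 1 was lower after ligation and in the 4-PBA group against CVST at an unadjusted p under 0.05, against 4.18% and 7.33% of all genes that were lower. It was Ackr2, a scavenging chemokine receptor, with 2.04, 3.33 and 0.488 CPM in the CVST libraries, 0.62, 0.361 and 0.396 in the CVST+Ligation libraries and 0, 0.463 and 0.381 in the 4-PBA libraries. CVST replicate 3 lay close to the other groups. Its smallest adjusted p was 0.199 in the edgeR test (Benjamini-Hochberg adjusted). None was higher in any comparison.

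Pdpn had 28.6, 29 and 19.5 CPM in CVST replicates 1 to 3. It had 21.7, 16.1 and 21.7 CPM in the CVST+Ligation group and 13.5, 14.9 and 47.5 in the 4-PBA group. The groups overlapped, and a single library, 4-PBA replicate 3, was far above the rest, while the other 4-PBA libraries were below all others. The log2 fold change was -0.37 (SE 0.44, 95% interval -1.36 to 0.61) for ligation, 0.35 (SE 0.44, -0.63 to 1.34) for 4-PBA against CVST+Ligation and -0.02 (SE 0.44, -1.0 to 0.96) for 4-PBA against CVST. Without 4-PBA replicate 3 the last value was -0.86 (unadjusted p = 0.00682 and adjusted p = 0.145 in the edgeR test (Benjamini-Hochberg adjusted)) and the one before it -0.49. In that library 8 astrocyte genes summed to 3095 CPM, against 1235 to 2502 elsewhere. Gfap, the intermediate filament of reactive astrocytes, was at 1621 CPM against 353 and 418 in the other 4-PBA libraries. Vim was at 687 CPM against 78.4 and 268, and Aqp4, Aldh1l1 and Cd44 were also highest there among the 4-PBA libraries. The rest of the list was lowest there: Slc1a3 (254 CPM against 307 and 282), Slc1a2 (130 against 174 and 132) and Gja1 (129 against 173 and 148). The part of astrocytes in the Pdpn value was not tested.

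Of the 11 genes that make or bind hyaluronan or partner with podoplanin, 10 were tested (Clec1b, which encodes the platelet receptor CLEC-2, had too few counts). After ligation 2 of the 10 passed an unadjusted p under 0.05 and in the 4-PBA group against CVST 1 of the 10, against 9.64% and 15.4% of all genes. Rdx, encoding radixin, which ties surface proteins to actin, passed in both. It had 94.9, 96.6 and 84.5 CPM in the CVST libraries, 121, 137 and 117 in the CVST+Ligation libraries and 134, 118 and 113 in the 4-PBA libraries. All CVST values lay below the others, and the log2 fold change for ligation was 0.45 (SE 0.12), with an adjusted p of 0.308 in the edgeR test (Benjamini-Hochberg adjusted). Ezr, encoding its relative ezrin, was lower after ligation by the same unadjusted rule, at 125 ± 26.1 CPM in the CVST group and 73.3 ± 30.8 in the CVST+Ligation group (SD, n = 3 each). Cd9, a membrane partner of podoplanin, averaged 222 ± 44.3, 154 ± 34.9 and 233 ± 107 CPM in the 3 groups and did not pass.

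Among 17 genes of lymphatic vessel growth and valves, 1 was higher (Fat4) and 1 lower (Acvrl1) after ligation, and none passed between the 4-PBA and CVST+Ligation groups, where 9.64% and 3.23% of all genes passed. Angpt1 and Calcrl were among 3 of the 17 that were higher in the 4-PBA group against CVST. In that comparison 15.4% of all genes passed and 8.07% were higher, and 3 of 17 (17.6%) is near the first share. These genes passed at an unadjusted p under 0.05 and none did after adjustment. Fat4, a large cadherin needed for lymphatic polarity, averaged 16.4 ± 2.55 CPM in the CVST group and 34.2 ± 18.4 in the CVST+Ligation group, with replicate 1 of the latter at 55.3. Acvrl1, an endothelial receptor of the BMP family, averaged 22.3 ± 7.62 and 13.5 ± 3.02 CPM (SD, n = 3 each).

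Over all 67 tested genes of these lists, 4 were higher and 4 lower after ligation, which is 11.9% against 9.64% of all genes, with a median log2 fold change of 0.06 against 0.00 over all genes. By direction, 5.47% of all genes were higher and 4.18% lower. Between the 4-PBA and CVST+Ligation groups 2 were higher and none lower (2.99% against 3.23%, of which 1.81% higher and 1.42% lower). In the 4-PBA group against CVST 8 were higher and 2 lower (14.9% against 15.4%, of which 8.07% higher and 7.33% lower), with a median of 0.26 against -0.01 over all genes. No gene of these lists was called at an adjusted p under 0.05 by edgeR's quasi-likelihood test in any comparison.

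**Figure D4:**
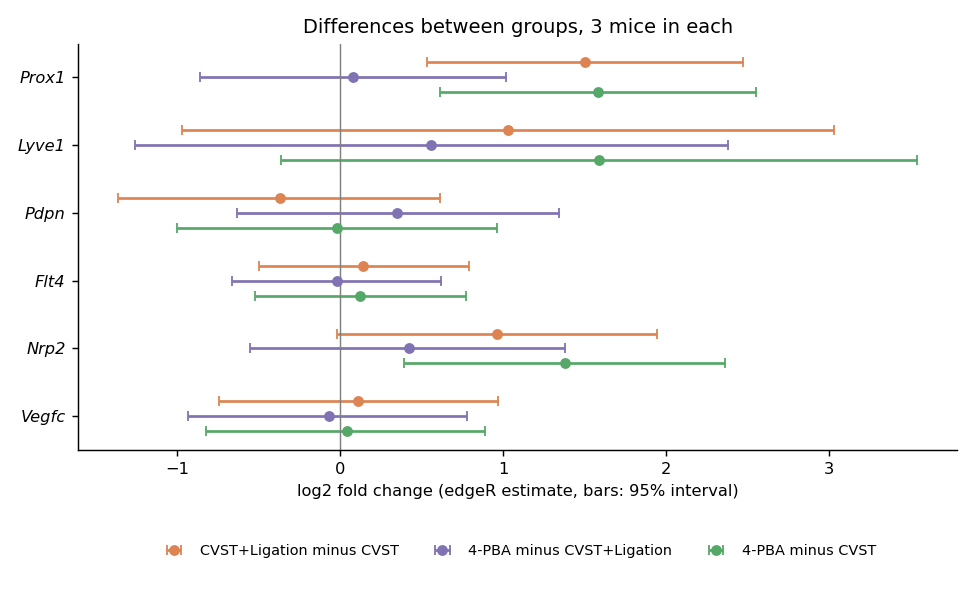
Log2 fold changes of the 6 genes in the 3 comparisons (points) with their 95% intervals (bars), from 3 mice in each group. The intervals of Prox1 against CVST in both other groups, and of Nrp2 in the 4-PBA group against CVST, lie above 0, and those between the 4-PBA and CVST+Ligation groups include 0 for all 6 genes.

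Likeness between the members was compared over the log2 CPM of the 9 libraries. By r, the closest pair was Prox1 and Nrp2 with r = 0.55 (rho = 0.37). By rho, the closest were Lyve1 and Flt4 (rho = 0.68, r = 0.49) and Flt4 and Pdpn (rho = 0.62, r = 0.49). Flt4 and Vegfc, receptor and ligand, had r = 0.20 (rho = 0.17). These values describe libraries that share group and region content, and carry no test. Over all genes, the pattern most like Prox1 was that of Tanc1, a scaffold protein of synapses (r = 0.929), and the pattern most like Pdpn was that of Klk9 (r = 0.969), followed by Serpina3n, a gene of reactive astrocytes (r = 0.959), and Hmox1, encoding heme oxygenase (r = 0.947). Serpina3n had 970 CPM in 4-PBA replicate 3, the library highest in Pdpn, and 49 to 381 in the others. Lyve1 was most like Fgl1 (r = 0.954), Cast (r = 0.949) and Ebf1 (r = 0.939), Flt4 most like Hjv (r = 0.968), Nrp2 most like Lrpprc (r = 0.942) and Vegfc most like Fbxl13 (r = 0.927). They were picked as the highest of 14746 genes over 9 libraries, and nothing is read from them about shared function.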

How the data were processed

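Brain RNA of 9 mice was sequenced as paired reads. Per the labels and the methods, the authors filtered reads with fastp, mapped them to mm10 (GRCm38) with HISAT2 (its mode is given as orientation), assembled transcripts with StringTie and quantified with RSEM. Versions, the annotation, which program made the whole-number counts and whether it used strand are not given in the sources used here. The authors deposited unnormalized read counts per gene symbol, and expression values described in the methods as TPM. These deposited values are FPKM: each equals the count over the library total and a single length per gene. No replicates were pooled.

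Groups came from the sample titles. The 3 mice per group are taken from the methods. The test of counts used edgeR 4.0.16 in R 4.3.3 (TMM, filterByExpr with the groups, 14746 genes kept, quasi-likelihood model of the 3 groups with no covariates, Benjamini-Hochberg adjustment over all genes tested). A gene was called at an adjusted p under 0.05, and counts at an unadjusted p under 0.05 are given beside it. Intervals of log2 fold changes are 95% from the model's standard error. Count intervals and the floor of 3 counts cover counting error only. Within groups, libraries correlated across genes at r = 0.946 to 0.982. The alternatives were other scalings, DESeq2 1.42.0, other count filters, a model of only the groups compared, the replicate number as a block, limma 3.58.1 on log2(FPKM + 1) and log2(FPKM + 0.1), planned for values of a unit then unknown, and each library left out in turn. Simulated data were used only for edgeR, DESeq2 and limma fits, for ligation and for 4-PBA against CVST+Ligation. Other steps and settings were not simulated. Among its calls in the simulated data, DESeq2 had a larger share of unchanged genes than edgeR or limma.

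The 6 genes, the pathway lists and the marker lists were chosen with earlier results of these data known. Some genes of the pathway lists are counted in the totals over all lists but not reported here. The genes named are the members, those of the pathway lists that passed an unadjusted p or had one of the 3 smallest p in their list, marker genes, and the genes with the highest correlation to a member over log2 CPM. Lists of hippocampal pyramidal neurons (sums of 261 to 865 CPM) and cortical interneurons (1061 to 1811 CPM) were also summed, and the dentate granule sum without Calb1 was added after seeing the data. Gene positions are from GENCODE and promoters from RefSeq, both GRCm38, and no promoter entry was used for Lyve1. Figures were drawn with matplotlib 3.10.9.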

Additional observations from a re-analysis of the deposited data

How the results depend on the processing

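DESeq2 in place of edgeR called 1 member after ligation (Prox1) and 2 in the 4-PBA group against CVST (Prox1 and Nrp2) at an adjusted p under 0.05, where edgeR called 0, and it called 264, 22 and 855 of all genes in the 3 comparisons against 3, 0 and 18. At an unadjusted p, 2 members (Prox1 and Nrp2) in place of 1 passed after ligation with total counts, DESeq2, all genes with at least 1 count, the replicate block and limma at both pseudocounts, and 1 to 2 with a library left out. The cause was not tested. Prox1 passed unadjusted in 18 of 18 alternatives in both comparisons with CVST, Nrp2 in 18 of 18 for 4-PBA against CVST and in 8 of 18 for ligation.

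Small differences changed sign. For 4-PBA against CVST+Ligation, Prox1 was -0.07 with the replicate block, -0.04 and -0.05 with limma at pseudocounts of 1 and 0.1, and Flt4 was 0.01 with total counts and 0.00 with limma at 1. For 4-PBA against CVST, Pdpn was 0.06 with total counts, and Vegfc -0.03 with the block and -0.02 with limma at 0.1. With a library left out, ligation gave -0.10 to 1.40 for Lyve1 and -0.11 to 0.30 for Flt4. For 4-PBA against CVST+Ligation the ranges were -0.17 to 1.71 for Lyve1, -0.64 to 0.38 for Prox1, -0.19 to 0.10 for Flt4, -0.49 to 0.67 for Pdpn and -0.31 to 0.27 for Vegfc. For 4-PBA against CVST they were -0.13 to 0.29 for Flt4, -0.86 to 0.30 for Pdpn and -0.20 to 0.39 for Vegfc.

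Same-numbered libraries deviated together only in part (r of -0.0516 to 0.3244), so the numbers were not taken to pair mice, and not every library correlated best with its own number. With the replicate block 1, 1 and 25 of all genes were called. Of all genes, 7, 0 and 541 were called without CVST+Ligation replicate 2, 1, 0 and 234 in models of only the groups compared, 0, 0 and 6 where every library had to hold 10 counts or more, and 3, 0 and 112 among all genes with at least 1 count. With limma 3, 2 and 87 were called at a pseudocount of 1, and 13, 0 and 134 at 0.1. Across the other libraries left out the counts were 0 to 3, 0 to 2 and 2 to 162 (the highest without CVST replicate 3). Lyve1 could not be tested under that filter of 10 counts, and it did not pass the filter in the models of only CVST with CVST+Ligation or only CVST with 4-PBA. For 4-PBA against CVST it gave 0.87 to 2.02 with a library left out, and passed unadjusted in 1 of 16 alternatives. With 3 libraries in a group the intervals of Prox1, Pdpn and Nrp2 reach about 1 log2 unit to either side. Those of Lyve1, which had 2 to 24 counts per library, are wider.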
